A study of Mus musculus with 12 samples.

Results

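The 10 genes described here mark dendritic cells or carry their signals to T cells, and the DNA methylation of the CpGs in and around them was followed in mouse leukaemia cells. They are Zbtb46, Wdfy4, Cadm1, Batf3, Id2, Xcr1, Tcf4, Cd80, Cd86 and Cd40, out of 17323 protein-coding genes with enough CpGs to measure. For each gene, the region taken ran from 5 kb outside one end through the gene body to 5 kb outside the other (mouse build mm10). Every CpG in it that had 10 calls or more in all 12 libraries, both strands summed, was used. The 10 regions held 925 such CpGs, of 1052856 in the whole data set. The genes were picked by name, with earlier results of these data known.

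The cells were CMM cells, a transplantable mouse line of acute myeloid leukaemia with inv(16), marked with GFP and engrafted by vein into C57BL/6 mice. Treatment began when GFP+ leukaemia cells made up about 1% of blood, and 3 injections were given on alternate days. One day after the last, spleens were taken and GFP+ cells sorted into 3 groups of 4 libraries: GFP+ CD11b+ cells of mice given CpG-STAT3dODN (here CD11b-positive), GFP+ CD11b- cells of mice given the same agent (CD11b-negative), and all GFP+ cells of mice given PBS (PBS). CpG-STAT3dODN joins a CpG oligonucleotide, a ligand of the receptor TLR9, to a decoy that binds STAT3. The design set the CD11b+ cells that arise under treatment against the CD11b- cells and against leukaemia of control mice, with DNA methyltransferases in view. All groups thus carry the same leukaemia in the same host strain. CD11b-positive and PBS differ both in treatment and in CD11b selection, which cannot be told apart. The labels do not say that the 4 libraries of a group came from separate mice, so p-values measure the spread between libraries.

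Dendritic cells arise from myeloid progenitors in several kinds. Classical type 1 cells (cDC1) depend on the transcription factors Batf3 and Id2, carry the chemokine receptor Xcr1 and the adhesion molecule Cadm1, and need Wdfy4 to present antigen taken up from dying cells to CD8+ T cells. Zbtb46 marks the classical dendritic lineage as a whole, and Tcf4, an E protein that Id2 restrains, drives plasmacytoid dendritic cells. Mature dendritic cells display CD80 and CD86, the ligands of CD28, and CD40, through which helper T cells activate them. DNA methylation at a gene start commonly goes with silence, while methylation inside gene bodies has no such simple reading, and no RNA or protein was measured in these files. The libraries were made by reduced representation bisulfite sequencing, which reads restriction fragments and favours CpG-dense DNA; a methylation level is the share of calls at a set of CpGs that read as methylated. In sorted bulk cells, a level between 0% and 100% may be a mix of cell types or of methylated and unmethylated copies in one type, and the files do not separate these.

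The start regions of Batf3 and Id2 are shown because CpGs inside them were measured and can be read base by base. Of the 10 genes, 6 had an entry in the RefSeq promoter table (GRCm38.p6), from 250 bases before to 50 after the annotated start. CpGs that were measured are in capitals and everything else is in lower case. Batf3 (chr1:191098164-191098463, plus strand) held 34 CpGs, of which 20 were measured, and Id2 (chr12:25096043-25096342, minus strand) held 21, of which 5 were measured.
Batf3: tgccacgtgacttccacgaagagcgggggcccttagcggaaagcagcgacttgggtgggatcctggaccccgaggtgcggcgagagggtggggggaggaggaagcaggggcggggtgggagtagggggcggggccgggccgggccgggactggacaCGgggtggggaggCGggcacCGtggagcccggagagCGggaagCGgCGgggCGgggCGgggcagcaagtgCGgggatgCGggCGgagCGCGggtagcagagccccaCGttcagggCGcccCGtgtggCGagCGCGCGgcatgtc
Id2: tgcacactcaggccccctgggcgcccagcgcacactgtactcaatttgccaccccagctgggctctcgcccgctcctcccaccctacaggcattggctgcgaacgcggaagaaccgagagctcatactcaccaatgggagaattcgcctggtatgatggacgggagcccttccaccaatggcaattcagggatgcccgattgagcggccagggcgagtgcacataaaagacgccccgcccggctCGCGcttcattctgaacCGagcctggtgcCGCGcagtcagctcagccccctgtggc
The letters CCGG, the site at which the enzyme commonly used for this method cuts, occurred 4 times in the Batf3 sequence and 1 time in that of Id2, counting both strands at once because the site is a palindrome. They occurred in 62.5% of all 17274 promoters in the table. The corresponding sequences of Zbtb46, Wdfy4, Xcr1 and Cd80 held 1, 5, 6 and 3 CpGs, against a median of 14 over the table, and no CpG in them was measured. Cadm1, Tcf4, Cd86 and Cd40 were not matched.

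The libraries held between 112671408 and 157223205 calls, and the median depth of the common CpGs was 84 calls in a library. Libraries numbered 2 stood apart. Calls at 8 Y-chromosome genes, scaled to 1000000 autosomal calls (here the Y share), were 25.0, 41.3, 23.8 and 23.8 in the CD11b-positive libraries, 12.9, 40.2, 11.1 and 8.64 in the CD11b-negative libraries and 5.52, 18.6, 8.25 and 11.04 in the PBS libraries. Library 2 was the highest of each group, and the CD11b-positive and PBS libraries did not overlap. Mean methylation over all common CpGs was 34.7% ± 0.810 in CD11b-positive, 33.1% ± 1.59 in CD11b-negative and 31.4% ± 0.292 in PBS libraries (SD, n = 4 each). For CD11b-positive against PBS, both the mean methylation and the Y share gave the smallest two-sided p that an exact permutation test of 4 against 4 can give, 0.0286 (0.0857 after Benjamini-Hochberg adjustment over 9 such tests), as did mean methylation for CD11b-negative against PBS. In the 74 tiles of 1000 bp with at least 3 common CpGs that the 10 regions contain, CD11b-negative 2 had the highest or lowest level of its group in 67 tiles and CD11b-positive 2 in 55. For the other libraries this count ran from 23 (CD11b-negative 1) to 46 (PBS 2). Results without treated libraries numbered 2 are therefore also given for some region differences, for the calls of CD11b-positive against CD11b-negative and for the order of the group means. For CD11b-positive against PBS, the numbers of calls are given as ranges over all left-out libraries. The lists and the tiles grouped by level are given with all libraries.

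CD11b-positive cells had higher methylation than PBS cells over most of the 10 regions, and 2 of them, Wdfy4 and Cd86, passed the call. A call needed an adjusted p under 0.05 in a quasi-binomial model fitted to all gene regions, with Benjamini-Hochberg adjustment over all of them, and a difference of at least 10 percentage points. Across all gene regions 18.1% were called higher and 3.51% lower in this comparison, so 2 of 10 is near the background. Without the minimum difference, 6 of the 10 passed the adjusted p (Wdfy4, Batf3, Id2, Cd80, Cd86 and Cd40), where 50.0% of all gene regions did. In the same 6, every CD11b-positive library lay above every PBS library, as was the case for 43.3% of all regions. The median difference was 3.06 points over the 10 genes and 2.88 points over all gene regions. The 10 genes thus moved about as gene regions in general moved, and the differences among them carry most of the detail.

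**Figure D1:**
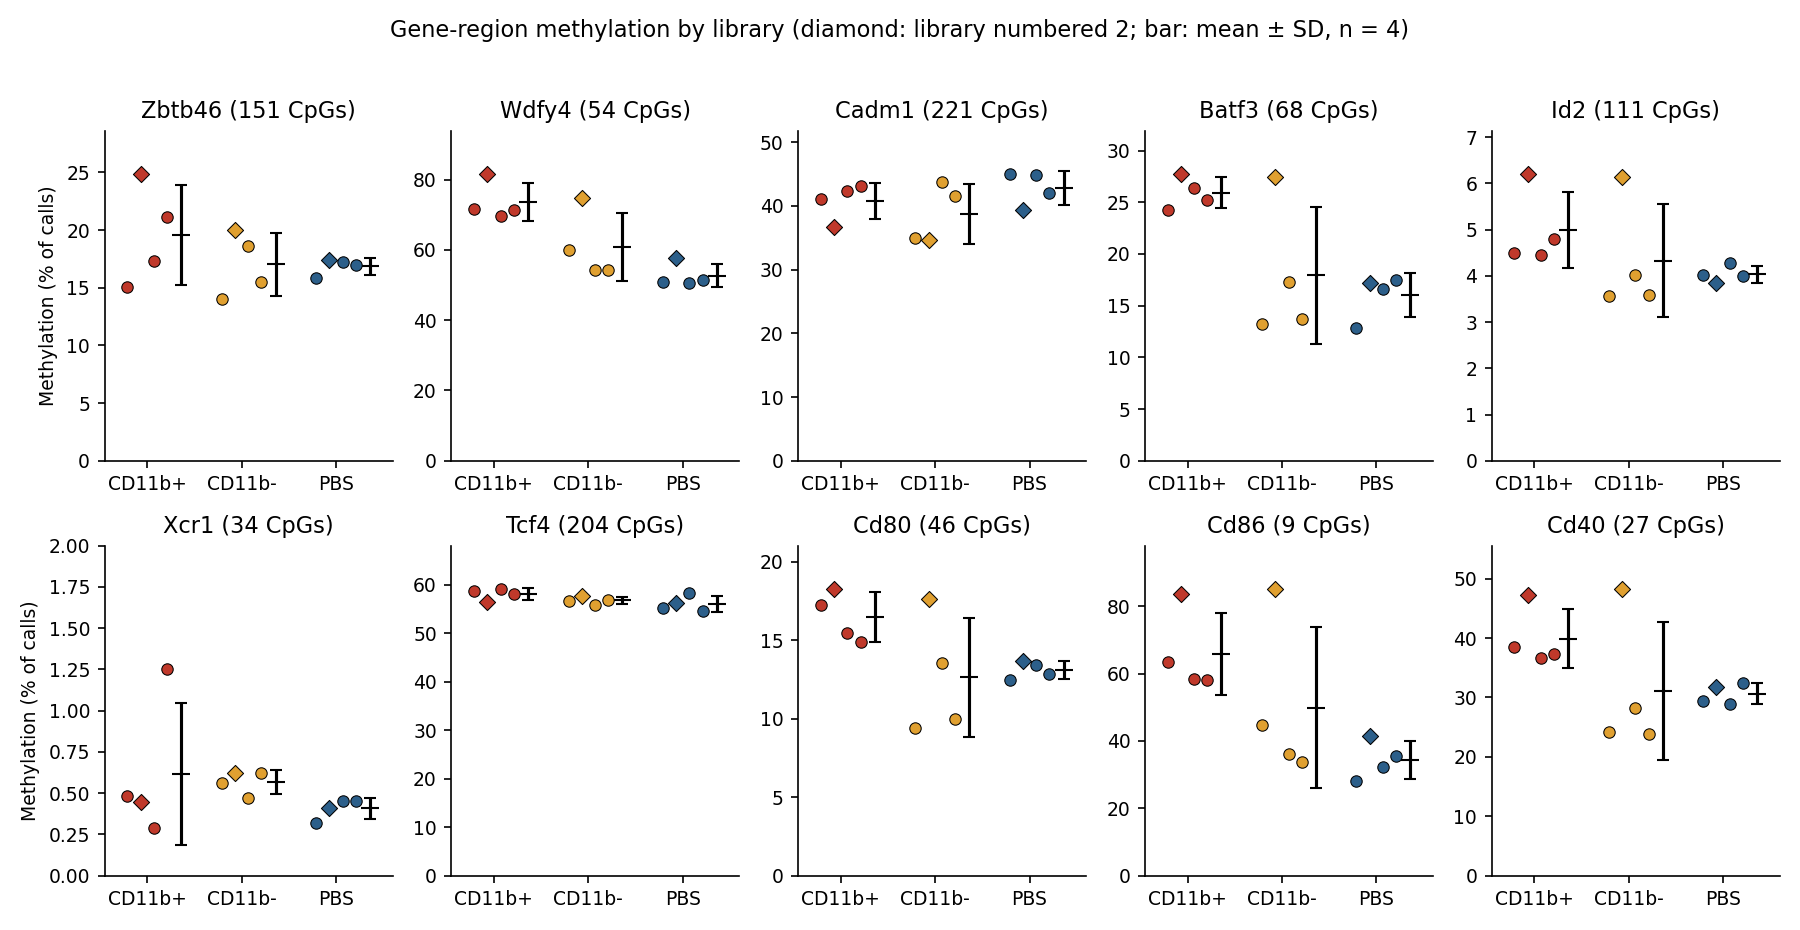
Methylation of each gene region (vertical axis, % of calls; each panel has its own scale from 0) in the 4 libraries of the CD11b-positive, CD11b-negative and PBS groups, with the mean and SD (n = 4) beside the points. Diamonds are the libraries numbered 2, and in Wdfy4, Batf3, Id2, Cd80, Cd86 and Cd40 all CD11b-positive points lie above all PBS points.

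Batf3, the AP-1 family factor on which cDC1 depend, had little methylation at its start in every group, while tiles on both sides were called higher in CD11b-positive than in PBS cells. The region (chr1:191093414-191113943, 68 CpGs) was at 24.3%, 27.8%, 26.4% and 25.3% in the CD11b-positive libraries, 13.3%, 27.5%, 17.3% and 13.7% in the CD11b-negative libraries and 12.8%, 17.2%, 16.6% and 17.5% in the PBS libraries. The CD11b-positive libraries were tightly grouped above all PBS libraries, and CD11b-negative 2 lay among them. The difference from PBS, 9.89 points (adjusted p = 0.00222, quasi-binomial model), fell just short of the 10 points a call needs. It passed 10 points when CD11b-positive 4 (10.1), CD11b-positive 1 (10.4) or any one of PBS 2, PBS 3 and PBS 4 was left out. Without CD11b-positive 2, CD11b-positive 3 or PBS 1 it stayed under 10 points. With at least 5 or at least 20 calls per CpG in place of 10, it was 10.8 points (adjusted p = 0.00194) and 10.9 points (adjusted p = 0.00232), and Batf3 was called.

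Within the Batf3 region, 4 of 5 tiles were called higher and none lower, beside 32.5% and 3.76% of all tiles. The 4 called tiles had means over the 12 libraries between 20% and 80%, where 68.8% of all tiles were called higher. The largest gain was at the far end of the gene (chr1:191108001-191109000, 3 CpGs), with levels of 82.0%, 81.4%, 64.9% and 65.4% in CD11b-positive, 40.8%, 77.2%, 51.0% and 40.9% in CD11b-negative and 35.5%, 48.0%, 42.0% and 45.3% in PBS libraries. All CD11b-positive libraries lay above all PBS libraries there, by 30.8 points between the means (adjusted p = 0.00321 over all tiles, quasi-binomial model). The tile in the flank before the start (chr1:191095001-191096000) had 53.6% ± 9.05 in CD11b-positive, 39.1% ± 19.3 in CD11b-negative and 29.6% ± 7.32 in PBS libraries (SD, n = 4 each). Between these 2 tiles sits the start itself. In the window of 1000 bp on each side of it, 52 CpGs averaged 4.65% ± 1.49, 4.58% ± 0.572 and 4.63% ± 0.607 in CD11b-positive, CD11b-negative and PBS libraries (SD, n = 4 each), and the CD11b-positive minus PBS difference of 0.02 points had an adjusted p of 0.995 over all start windows in the quasi-binomial model. Of the 20 CpGs capitalised in the Batf3 sequence, the highest mean of any CpG was 3.60% in CD11b-positive, 2.77% in CD11b-negative and 2.24% in PBS libraries. Across all 10865 measured start windows 4.06% were called higher and 4.65% lower in that comparison.

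Id2, which binds E proteins and blocks them, was low in methylation over its region as a whole, with 1 tile (chr12:25093001-25094000, 3 CpGs) at 35.2% over the 12 libraries. Its region (chr12:25088799-25101092, 111 CpGs) was at 4.50%, 6.21%, 4.45% and 4.80% in the CD11b-positive libraries, 3.57%, 6.13%, 4.02% and 3.58% in the CD11b-negative libraries and 4.03%, 3.85%, 4.28% and 3.99% in the PBS libraries. The CD11b-positive libraries all lay above the PBS libraries, by 0.956 points between the means (adjusted p = 0.0383, quasi-binomial model), far under the 10 points of a call. None of its 8 tiles was called. The start window averaged 0.770% ± 0.192 over 6 CpGs in CD11b-positive libraries, 0.666% ± 0.176 in CD11b-negative libraries and 0.509% ± 0.144 in PBS libraries (SD, n = 4 each; adjusted p = 0.386 for CD11b-positive against PBS, quasi-binomial model). At the 5 CpGs capitalised in its sequence no group mean was above 1.58%.

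Zbtb46, the zinc finger factor of the classical dendritic lineage, passed no test over the region as a whole (chr2:181366009-181498262, 151 CpGs). Its levels were 15.0%, 24.9%, 17.3% and 21.1% in CD11b-positive, 14.05%, 19.997%, 18.6% and 15.5% in CD11b-negative and 15.8%, 17.4%, 17.3% and 16.9% in PBS libraries, and the groups overlapped (2.74 points for CD11b-positive against PBS, adjusted p = 0.187, quasi-binomial model). Its CpG-dense and CpG-poor DNA differed. A dense stretch inside the gene (chr2:181458001-181460000, 2 tiles with 39 and 61 CpGs) averaged 1.01% and 0.916% in CD11b-positive, 1.06% and 0.838% in CD11b-negative and 0.882% and 0.667% in PBS libraries. The next tile up (chr2:181460001-181461000, 25 CpGs) was at 8.58%, 12.4%, 6.67% and 7.05% in CD11b-positive libraries, 5.82%, 9.95%, 3.55% and 3.64% in CD11b-negative libraries and 1.41%, 1.91%, 1.91% and 1.88% in PBS libraries. All treated libraries of both sorts lay above all PBS libraries in it, but the gap of 6.91 points between CD11b-positive and PBS (adjusted p = 0.001, quasi-binomial model) is under the minimum for a call; this tile was singled out after its values were seen.

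Of the 6 Zbtb46 tiles, 2 were called higher, beside 32.5% of all tiles. The larger gain (chr2:181391001-181392000, 4 CpGs) had levels of 77.0%, 93.2%, 68.6% and 65.4% in CD11b-positive, 41.1%, 93.9%, 52.3% and 42.5% in CD11b-negative and 37.3%, 56.4%, 48.1% and 48.4% in PBS libraries. CD11b-positive lay above PBS in every library, with a difference of 28.5 points (adjusted p = 0.00704, quasi-binomial model), and CD11b-negative 2 was again as high as CD11b-positive 2. All 13 CpGs of the other called tile lie within 1000 bp of the neighbouring gene Abhd16b, so it cannot be credited to Zbtb46 alone.

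Tcf4, the E protein gene of plasmacytoid dendritic cells, moved in both directions. Over the region (chr18:69338429-69692967, 204 CpGs) the levels were 58.7%, 56.5%, 59.2% and 58.1% in CD11b-positive, 56.7%, 57.7%, 55.9% and 56.9% in CD11b-negative and 55.2%, 56.2%, 58.4% and 54.6% in PBS libraries. These overlap, and the difference of 2.06 points for CD11b-positive against PBS did not pass (adjusted p = 0.121, quasi-binomial model). Of 19 tiles, 4 were called higher and 2 lower, beside 32.5% and 3.76% of all tiles. The largest gain (chr18:69478001-69479000, 5 CpGs) was 20.9 points, to 89.3% ± 7.34 in CD11b-positive against 68.4% ± 7.88 in PBS libraries, with 72.9% ± 12.5 in CD11b-negative libraries (SD, n = 4 each; adjusted p = 0.0093, quasi-binomial model). The largest loss (chr18:69365001-69366000, 3 CpGs) had 28.6%, 16.2%, 33.2% and 36.2% in CD11b-positive, 43.7%, 21.4%, 49.6% and 48.1% in CD11b-negative and 47.1%, 38.3%, 55.7% and 48.8% in PBS libraries, so that every CD11b-positive library lay below every PBS library (-19.0 points, adjusted p = 0.0189, quasi-binomial model). The dense tile at 3.07 kb from the end of the gene at the lower coordinate (52 CpGs) was at 1.79% ± 1.01 in CD11b-positive, 3.00% ± 1.35 in CD11b-negative and 5.04% ± 0.797 in PBS libraries (SD, n = 4 each), a tile singled out after its values were seen. Among single CpGs of Tcf4, 27 were called higher and 11 lower, together 18.6% beside 16.7% of all common CpGs.

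Wdfy4, the BEACH-domain protein that cDC1 need for cross-presentation, was called higher in CD11b-positive than in PBS cells, with the smallest adjusted p of the 10 regions. The region (chr14:32954547-33198855, 54 CpGs) was at 71.8%, 81.6%, 69.6% and 71.4% in the CD11b-positive libraries, 59.9%, 74.6%, 54.1% and 54.3% in the CD11b-negative libraries and 50.9%, 57.8%, 50.7% and 51.4% in the PBS libraries. The lowest CD11b-positive library lay well above the highest PBS library, and among the CD11b-negative libraries number 2 was up with the CD11b-positive ones. The mean rose to 73.6% ± 5.44 in CD11b-positive, against 52.7% ± 3.39 in PBS libraries (SD, n = 4 each), by 20.9 points (adjusted p = 0.00178, quasi-binomial model). Leaving out any one library gave 18.2 to 22.6 points, and leaving out CD11b-positive 2 gave 18.2 (adjusted p = 0.000758). With the Y share of each library added to the quasi-binomial model the estimate was 9.05 points and the call ended (adjusted p = 0.165). The Y share did not overlap between CD11b-positive and PBS libraries, so this fit cannot cleanly separate it from the group.

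The gain in Wdfy4 was spread over the gene, with 6 of 8 tiles and 27 of 54 CpGs called higher and none lower. All 8 tiles had a mean over the 12 libraries between 20% and 80%, where 68.8% of all tiles were called higher. Of all common CpGs, 16.7% were called in either direction. The 6 called tiles lay between 75.6 and 226 kb into the gene from the annotated start. In the tile with the largest gain of all 74 (chr14:33109001-33110000, 4 CpGs), CD11b-positive libraries were at 69.6%, 88.8%, 66.0% and 61.1%, CD11b-negative libraries at 44.9%, 83.9%, 32.2% and 34.6%, and PBS libraries at 18.6%, 37.3%, 27.7% and 26.7%. Every CD11b-positive library lay above every PBS library, by 43.8 points between the means (adjusted p = 0.00211, quasi-binomial model). The 2 tiles at the other end, which lie just beyond the annotated start but inside the longest gene model, were not called: the one with 10 CpGs (chr14:33190001-33191000) was at 68.8% ± 5.57 in CD11b-positive, 59.7% ± 10.9 in CD11b-negative and 65.7% ± 3.12 in PBS libraries (SD, n = 4 each; adjusted p = 0.42 for CD11b-positive against PBS, quasi-binomial model). In both of them the libraries numbered 2 of the treated mice were the lowest of their groups.

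**Figure D2:**
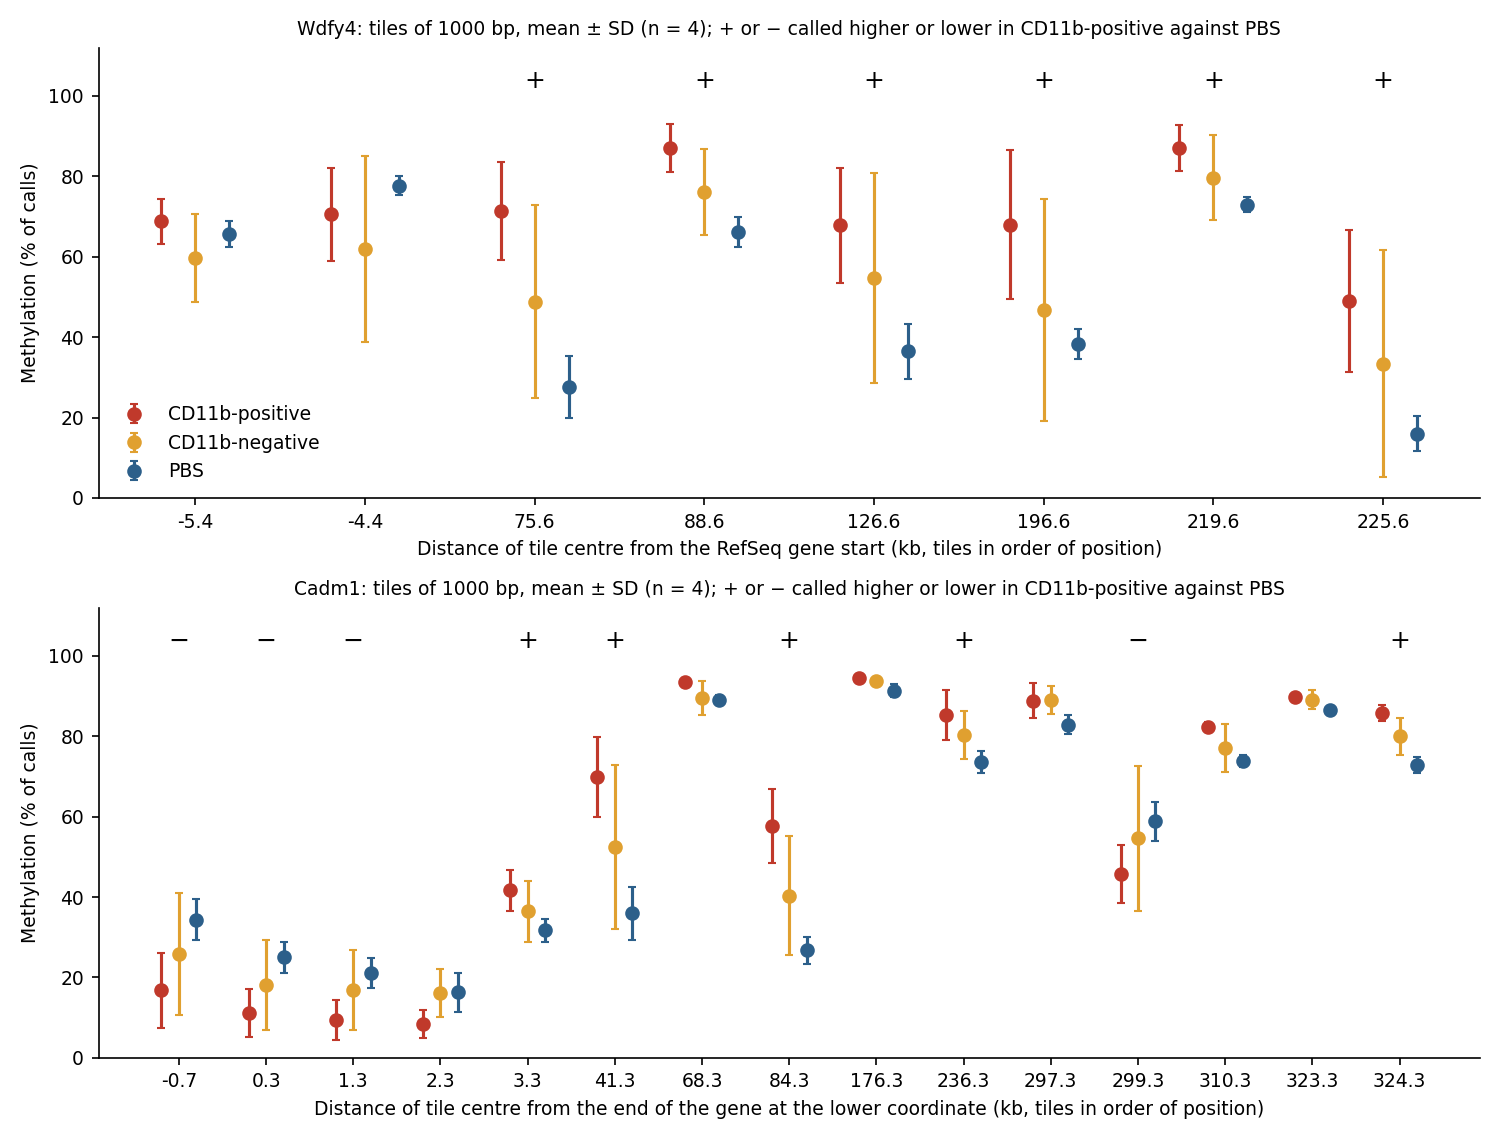
Mean methylation ± SD (n = 4) of each tile of 1000 bp in Wdfy4 (upper panel) and Cadm1 (lower panel) in CD11b-positive, CD11b-negative and PBS libraries; the vertical axis is % of calls and the horizontal axis lists the tiles in order of distance in kb. Plus and minus signs mark tiles called higher or lower in CD11b-positive against PBS: 6 plus signs in Wdfy4, all away from the start, and 5 plus and 4 minus signs in Cadm1, with 3 of the minus signs side by side at one end of the gene.

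Cadm1, the adhesion molecule of cDC1, was the one gene of the 10 whose region averaged lower in CD11b-positive than in PBS libraries, and it did so without a call. The region (chr9:47525170-47867280, 221 CpGs) was at 41.2%, 36.8%, 42.3% and 43.1% in CD11b-positive, 35.0%, 34.6%, 43.8% and 41.5% in CD11b-negative and 45.1%, 39.4%, 44.8% and 42.1% in PBS libraries (-2.04 points for CD11b-positive against PBS, adjusted p = 0.305, quasi-binomial model). The mean joined opposite movements. Single CpGs split into 18 called higher and 57 called lower, together 33.9% beside 16.7% of all common CpGs. Tiles split into 5 higher and 4 lower of 15, beside 32.5% and 3.76% of all tiles.

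Of the 4 called losses in Cadm1, 3 adjoined each other in the CpG-dense DNA at the end of the gene with the lower coordinate, and the other (chr9:47829001-47830000, 5 CpGs) lay 299 kb into the gene, at -13.1 points (adjusted p = 0.0421, quasi-binomial model). The tile just outside that end (chr9:47529001-47530000, 20 CpGs) showed the largest loss, with 16.5%, 3.69%, 23.2% and 23.9% in CD11b-positive, 27.01%, 4.21%, 34.8% and 37.7% in CD11b-negative and 37.2%, 26.8%, 36.9% and 36.6% in PBS libraries. Every CD11b-positive library lay below every PBS library, by -17.5 points between the means (adjusted p = 0.0126, quasi-binomial model), and both libraries numbered 2 of treated mice were close to 0. The next 2 tiles, with 54 and 70 CpGs, were lower by -13.8 and -11.5 points and are named because they adjoin it. The largest gain lay 41.3 kb into the gene from the same end (chr9:47571001-47572000, 3 CpGs), where CD11b-positive libraries were at 65.4%, 83.7%, 69.3% and 60.7%, CD11b-negative libraries at 47.5%, 82.7%, 39.7% and 40.3%, and PBS libraries at 29.5%, 44.8%, 33.0% and 36.5%. That gain was 33.9 points (adjusted p = 0.00225, quasi-binomial model), and again the CD11b-positive and PBS libraries did not overlap.

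Xcr1, the receptor for the chemokine XCL1 on cDC1, could not be measured in its gene body. All 34 CpGs of its region (chr9:123847315-123867029) lay in the flank at the lower coordinate, and all 34 were inside or within 1000 bp of the neighbouring gene Fyco1. They were between 0.289% and 1.25% methylated in CD11b-positive, 0.468% and 0.624% in CD11b-negative and 0.320% and 0.453% in PBS libraries. The highest value was in CD11b-positive 4, and the CD11b-positive libraries overlapped the PBS libraries (adjusted p = 0.384, quasi-binomial model). The CD11b-negative libraries all lay above the PBS libraries, by 0.160 points between the means (adjusted p = 0.751, same model). Nothing was called. These values describe DNA beside Fyco1, and no CpG of the Xcr1 gene body was measured.

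Among the costimulation genes, Cd86, one of the ligands of CD28, had the largest difference of the 10 regions, on the fewest CpGs. Its 9 CpGs (region chr16:36563956-36671158), covered by 998 to 1693 calls per library, were at 63.6%, 83.7%, 58.3% and 58.0% in the CD11b-positive libraries, 44.8%, 85.2%, 36.02% and 33.7% in the CD11b-negative libraries and 28.2%, 41.6%, 32.2% and 35.7% in the PBS libraries. The CD11b-positive libraries all lay above the PBS libraries, and CD11b-negative 2 was the highest of the 12. The mean rose to 65.9% ± 12.1 in CD11b-positive, against 34.4% ± 5.68 in PBS libraries (SD, n = 4 each), by 31.5 points (adjusted p = 0.00326, quasi-binomial model). Without CD11b-positive 2 the difference was 25.6 points (adjusted p = 0.00147, same model). With the Y share added to that model, under the limit given for Wdfy4, it was 5.93 points and no longer called (adjusted p = 0.528). Both Cd86 tiles were called higher, and both had a mean over the 12 libraries between 20% and 80%, where 68.8% of all tiles were. In the larger gain (chr16:36664001-36665000, 4 CpGs, 33.9 points, adjusted p = 0.00331), CD11b-positive libraries were at 66.6%, 89.1%, 60.4% and 63.1%, CD11b-negative libraries at 36.8%, 87.9%, 39.5% and 32.3%, and PBS libraries at 30.2%, 41.9%, 34.8% and 36.8%, by the same quasi-binomial model.

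Cd80, the other CD28 ligand, moved far less. Its region (chr16:38452430-38500958, 46 CpGs) was at 17.3%, 18.3%, 15.5% and 14.9% in CD11b-positive, 9.43%, 17.6%, 13.5% and 9.99% in CD11b-negative and 12.4%, 13.7%, 13.5% and 12.9% in PBS libraries. CD11b-positive lay above PBS in every library by 3.38 points between the means (adjusted p = 0.024, quasi-binomial model), and none of its 5 tiles was called. Of its 46 CpGs, 20 lay within 1000 bp of the neighbouring gene Adprh, and the tile that holds them was at 0.625% over the 12 libraries. Of the single CpGs, 6 (13.0%, beside 16.7% of all common CpGs) were called, 5 higher and 1 lower, all in the gene body.

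Cd40, the receptor through which T cells license dendritic cells, lay between the other costimulation genes. Its region (chr2:165050614-165076654, 27 CpGs) was at 38.4%, 47.3%, 36.6% and 37.3% in CD11b-positive, 24.2%, 48.3%, 28.2% and 23.9% in CD11b-negative and 29.4%, 31.7%, 28.8% and 32.5% in PBS libraries. The CD11b-positive libraries all lay above the PBS libraries, but the 9.29 points between the means (adjusted p = 0.0127, quasi-binomial model) fell short of a call. The difference passed 10 points without CD11b-positive 3 (10.4) or CD11b-positive 4 (10.2). It was smaller than 9.29 points without CD11b-positive 2, the highest of the CD11b-positive libraries here. In the gene body without its flanks it was 5.85 points (adjusted p = 0.101, quasi-binomial model). The flank at the lower coordinate held the largest gain (chr2:165051001-165052000, 11 CpGs), at 42.1%, 61.8%, 43.6% and 45.4% in CD11b-positive, 28.4%, 62.0%, 28.1% and 29.3% in CD11b-negative and 26.9%, 35.5%, 28.0% and 33.0% in PBS libraries. That was 17.4 points for CD11b-positive against PBS, with no overlap (adjusted p = 0.00681, quasi-binomial model).

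The 74 tiles were also grouped by how methylated they were. The mean used for this includes the libraries tested, and a tile with a mean near either end of the scale has little room for 10 points. Part of the contrast between these ranges was thus set in advance, and the shares of all tiles are given beside each. Of 34 tiles whose mean over the 12 libraries was between 20% and 80%, 22 were called higher and 4 lower, where 68.8% and 8.06% of all tiles in that range were called higher and lower. Of 25 tiles under 20%, none was called higher and 2, both in Cadm1, were called lower, where 2.40% and 1.50% of all such tiles were called. Of 15 tiles over 80%, 3 were called higher and none lower, where 12.7% and 0.228% of all such tiles were. Over all 74 tiles, 25 (33.8%) were called higher and 6 (8.11%) lower, beside 32.5% and 3.76% of all 87020 tiles; the 6 losses were 4 in Cadm1 and 2 in Tcf4. Of the 925 CpGs, 126 were called higher and 71 lower, together 21.3%, beside 16.7% of all common CpGs. With the Y share added to the model no region and no tile of the 10 genes was called in this comparison, and neither was any of the 17323 regions, while 0.130% of all tiles were. As the Y share did not overlap between CD11b-positive and PBS libraries, the lost calls cannot be assigned to it or to the group.

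**Figure D3:**
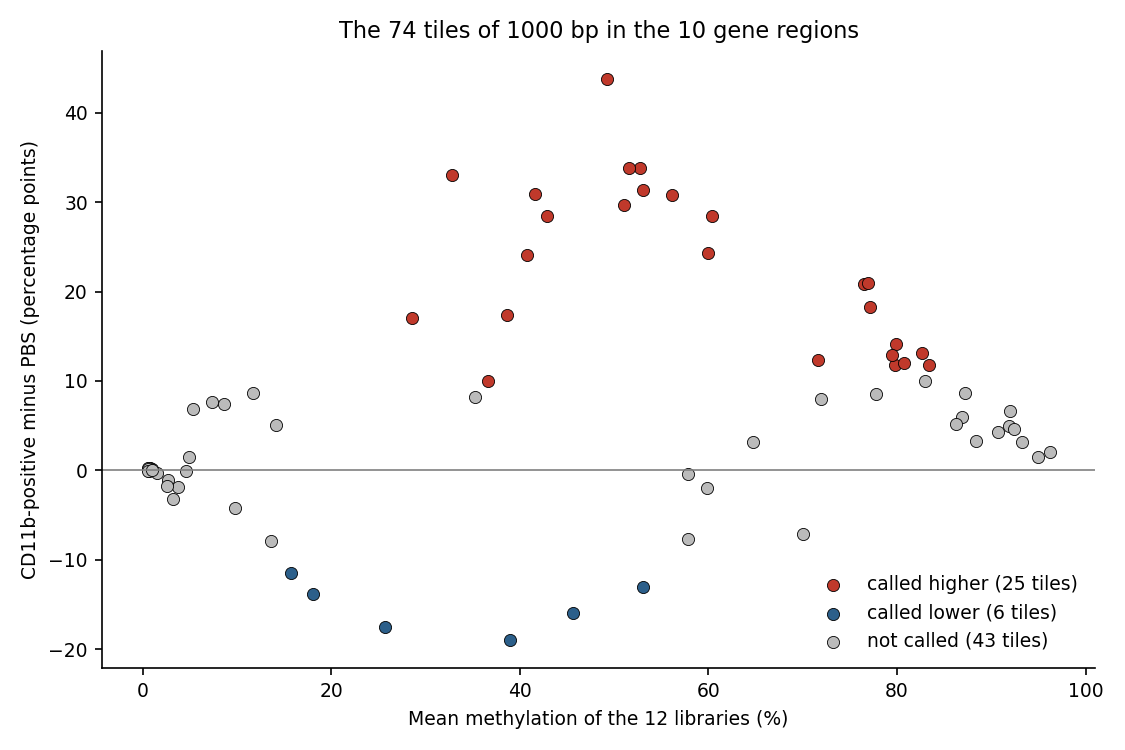
Difference in methylation, CD11b-positive minus PBS (vertical axis, percentage points), of each of the 74 tiles against its mean over the 12 libraries (horizontal axis, %). Red tiles (25) were called higher, blue tiles (6) lower and grey tiles (43) neither. Gains peak at middle levels, where tiles have the most room to differ, and no tile under 20% was called higher.

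CD11b-negative cells did not differ from PBS cells by a call at any of the 10 genes. No region, tile or CpG was called, and none was in the whole data set (0% of regions, tiles and CpGs called with the quasi-binomial model). At an unadjusted p under 0.05, none of the 10 regions and 10 of the 74 tiles passed, beside 5.17% of all regions and 9.90% of all tiles. The 10 differences ran between -4.12 points (Cadm1) and 15.5 points (Cd86), with a median of 0.420, beside 0.165 over all gene regions. Much of the larger ones came with library 2: without CD11b-negative 2, Cd86 stood at 3.76 points instead of 15.5, Wdfy4 at 3.41 instead of 8.04, and Batf3, Cd40, Zbtb46 and Id2 turned to -1.28, -5.17, -0.81 and -0.31 points, with no call.

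In 8 of the 10 regions, all but Cadm1 and Tcf4, CD11b-negative 2 lay within or above the range of the CD11b-positive libraries and above all PBS libraries. The same held for CD11b-negative 1, 3 and 4 in Xcr1 (0.559%, 0.468% and 0.620%) and for CD11b-negative 3 in Zbtb46 (18.6%). In all 31 tiles called between CD11b-positive and PBS, the level of CD11b-negative 2 lay beyond the CD11b-positive mean, on the side away from PBS. CD11b-negative 1, 3 and 4 did so in 0 of the 31 tiles and were nearer to the CD11b-positive mean than to the PBS mean in 7, 0 and 0. CD11b-positive 2 and CD11b-negative 2 differed by 10 points or more in 3 of 74 tiles, while the same-numbered libraries 1, 3 and 4 did so in 25, 23 and 26. Its Y share of 40.2 was close to the 41.3 of CD11b-positive 2. Whether this library went with its label was not tested.

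CD11b-positive against CD11b-negative gave no call with all 8 libraries, at any of the 10 genes or in the whole data set (0% of regions and tiles called). At an unadjusted p under 0.05, 2 of the 10 regions and 14 of 74 tiles passed, beside 20.5% of all regions and 10.8% of all tiles. All 10 differences were nonetheless positive, between 0.05 points (Xcr1) and 16.0 points (Cd86), with a median of 3.20 beside 2.78 over all gene regions. Calls were summed, so CpGs with many calls weigh more, and in some genes most CpGs did not go that way. The share of CpGs with a positive difference was 26.2% in Cadm1, 38.2% in Xcr1 and 43.2% in Id2. It was 44.1% in Tcf4, 47.8% in Cd80, and between 57.4% (Batf3) and 96.3% (Wdfy4) in the other genes. The adjusted p was 0.242 for both Wdfy4 (12.9 points) and Batf3 (7.99 points), 0.252 for Cd40 (8.74 points) and 0.316 for Cd86 (quasi-binomial model). In no region did all CD11b-positive libraries lie above all CD11b-negative ones, which they did in 5.20% of all gene regions.

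The outcome turned on CD11b-negative 2. Without it, 4 regions were called higher in CD11b-positive than in CD11b-negative libraries, with the same model: Cd86 by 27.7 points (adjusted p = 0.0191), Wdfy4 by 17.5 (adjusted p = 0.0107), Cd40 by 14.5 (adjusted p = 0.0122) and Batf3 by 11.2 (adjusted p = 0.0107). Of all gene regions 16.2% were then called higher. Without both treated libraries numbered 2, a comparison added after the data were seen, the same 4 were called, by 21.8, 14.8, 12.01 and 10.6 points for Cd86, Wdfy4, Cd40 and Batf3, and 12% of all regions were. Tiles called numbered 17 higher and 6 lower without CD11b-negative 2, and 15 higher and 4 lower without both, where 17.7% of all tiles were called higher in either case and 2.72% and 2.69% lower. Libraries of the same number correlated positively in their deviations between the 2 sorts, though 3 of the 4 CD11b-positive libraries did so more with another number, and with the number as a block Wdfy4 alone of the 10 regions was called, by 13.0 points (adjusted p = 0.0355, quasi-binomial model), where 0.0924% of all regions were called higher. The block called 12 tiles higher and 3 lower, 5 of the 12 in Wdfy4, where 11.6% of all tiles were called higher and 2.01% lower.

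**Figure D4:**
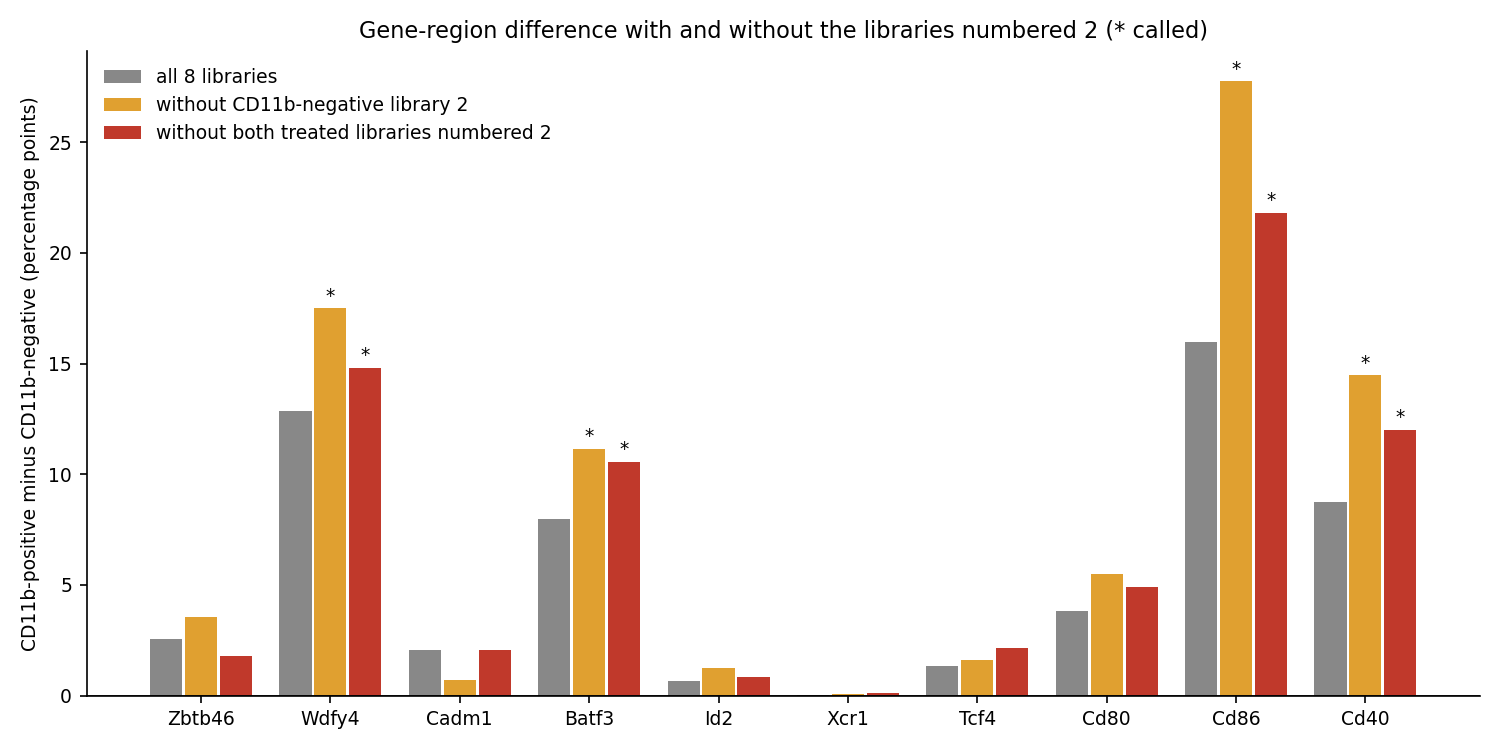
Difference in methylation of each gene region, CD11b-positive minus CD11b-negative (bars, percentage points from 0), with all 8 libraries, without CD11b-negative 2, and without both treated libraries numbered 2. Stars mark calls: none with all libraries, and Wdfy4, Batf3, Cd86 and Cd40 in both other settings.

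The CD11b-negative mean lay between the CD11b-positive and PBS means in 8 of the 10 regions (all but Cadm1 and Cd80), in 60 of the 74 tiles and in all 31 tiles called between CD11b-positive and PBS. This rested in part on CD11b-negative 2: without it, a setting added after the data were seen, the counts were 4 regions (Wdfy4, Xcr1, Tcf4 and Cd86), 42 tiles and 22 of the 31 called tiles. The 31 tiles were picked for a gap of at least 10 points between the CD11b-positive and PBS means. Such a gap leaves much room for the CD11b-negative mean, so the counts in these tiles cannot show an intermediate state by themselves. In levels, the CD11b-positive regions ran downward from Wdfy4 (73.6%), Cd86 (65.9%), Tcf4 (58.1%), Cadm1 (40.8%), Cd40 (39.9%), Batf3 (25.9%), Zbtb46 (19.6%), Cd80 (16.5%) and Id2 (4.99%) to Xcr1 (0.617%). In PBS libraries Tcf4 (56.1%) and Wdfy4 (52.7%) led, ahead of Cadm1 (42.9%), Cd86 (34.4%), Cd40 (30.6%), Zbtb46 (16.9%), Batf3 (16.0%), Cd80 (13.1%), Id2 (4.03%) and Xcr1 (0.408%).

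Other dendritic genes and genes of other blood cells gave the setting, with all lists read as methylation of gene regions and not as expression. In CD11b-positive against PBS, where 18.1% of all regions were called higher, 1 of 12 measured cDC1 genes was called higher (Wdfy4), 1 of 8 cDC2 genes (Clec4a4, a lectin receptor, 13.2 points), 2 of 10 plasmacytoid genes (Bst2, tetherin, 22.8 points, and Pacsin1, 11.6 points), and 2 of 6 shared genes (Ciita, the class II transactivator, 24.7 points, and Itgax, the CD11c integrin, 22.6 points). Of the maturation genes 3 of 10 were called higher, led by the chemokines Ccl22 (29.6 points) and Ccl17 (29.0 points). Of the costimulation and coinhibition ligands 2 of 12 were, Cd86 and Pdcd1lg2 (21.7 points), the gene of PD-L2. None of these dendritic lists had a gene called lower, and the median differences of their measured genes were 2.82, 3.74, 6.81, 8.18, 4.52 and 3.30 points in the order given, beside 2.88 over all gene regions.

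Genes of other lineages gained too. Of 11 monocyte and macrophage genes 6 were called higher, led by Ly6c2 (37.0 points) and the endotoxin co-receptor Cd14 (24.0 points). Of 11 neutrophil genes 5 were called higher, led by the chemokine receptor Cxcr2 (27.6 points) and the elastase gene Elane (20.1 points). Of 10 T cell genes 5 were called higher, led by Cd8a (23.5 points) and Lck (16.0 points), and 1 lower, Bcl11b (-12.7 points). Of 8 B cell genes 3 were called higher, led by Blk (23.4 points) and Ms4a1, the CD20 gene (13.2 points), and of 8 erythroid genes 3, led by the Rh antigen gene Rhd (16.6 points) and Gata1 (11.97 points). The median differences of these 5 lists were 13.2, 9.47, 10.7, 6.18 and 5.79 points. No gene of any of the 11 lists was called in the other comparisons. With the Y share added to the model none of the list calls of CD11b-positive against PBS remained, since no gene region was then called. That fit cannot cleanly separate the Y share from the group.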

How the data were processed

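Each library's deposited file gives, per CpG cytosine and strand, counts of methylated and unmethylated calls, unnormalised. Per the submitters' processing notes, the authors worked on mm10 with Bismark, methylKit 1.20.0, cutadapt 2.7 and Trim Galore 0.6.4; how PCR duplicates and conversion were handled is not given in the sources used here. Strands were summed, and CpGs with at least 10 calls in all 12 libraries kept. Calls were summed over gene regions, tiles and start windows with at least 3 CpGs. A quasi-binomial model (Python 3.11.15, scipy 1.17.1; dispersion moderated within bins of mean methylation and not under 1) was fitted to all features for the 8 libraries compared, checked on simulated data; alternatives included limma 3.58.1 and edgeR 4.0.16. Levels are means of library levels ± SD. PCR copies are not marked, so call numbers overstate independent molecules. Gene ends come from RefSeq (GRCm38.p6), which gave no exons here.

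All 10 genes are named; within each, the called tile with the largest gain and loss and the start; of each list, up to 2 called gains and losses, except for a result that is not reported here. The genes and lists were chosen with earlier results of these data known. Same-numbered CD11b-positive and CD11b-negative libraries deviated together over the gene regions (r between 0.184 and 0.855), so the numbers were taken to pair them, although 3 of the 4 CD11b-positive libraries correlated more with another number; with PBS they did not all do so (lowest r -0.019 for CD11b-positive and -0.123 for CD11b-negative), and the source of the pairing is not in the labels.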

Additional observations from a re-analysis of the deposited data

Results flagged for a closer look

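A library was taken as far from the others when its gap to the nearest library, as a share of the range of its group of 4, exceeded Dixon's critical value. Of 75 groups tested, 11 held such a library. Chance gives about 1 in 20 for independent groups. These groups share libraries and CpGs, and the tiles were picked by their differences, so the count cannot be judged against that rate. Of the 11, 7 were treated libraries numbered 2. CD11b-positive 2 was the highest of its group in Y calls (41.3 per 1000000 autosomal calls), mean methylation (35.9%) and the Cd40 tile with the largest gain (61.8%). CD11b-negative 2 was the highest of its group in Y calls (40.2 on that scale), mean methylation (35.5%), the same Cd40 tile (62.0%) and the Cd86 tile with the largest gain (87.9%). PBS 2 was the highest PBS library in the Wdfy4 region (57.8%) and the lowest in the Cadm1 tile with the largest loss (26.8%). PBS 1 was the lowest PBS library in the Tcf4 tile with the largest gain (56.7%). CD11b-positive 4 had the fewest calls of its group (117165833).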

How the results depend on the processing

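The Wdfy4 and Cd86 calls of CD11b-positive against PBS were kept under every alternative but the Y share term (Wdfy4 9.05, Cd86 5.93 points), which left 0 regions, 0 tiles and 1 CpG called; their adjusted p otherwise lay between 0.000601 and 0.0357. In that comparison, a minimum of 5 points called 4 regions, all 12 libraries in the fit called 81 CpGs, and each CpG's own dispersion called 0 CpGs. Batf3 was also called with at least 5 or 20 calls per CpG, which gave 3 regions each. Leaving out 1 library gave 2 to 4 regions (4 without CD11b-positive 4), 27 to 32 tiles and 137 to 200 CpGs. The Y share term called 3 CpGs in CD11b-negative against PBS, and 1 tile and 1 CpG in CD11b-positive against CD11b-negative. In CD11b-positive against CD11b-negative, leaving out 1 library gave 0 to 4 regions, 0 to 23 tiles and 0 to 104 CpGs (the highest each time without CD11b-negative 2), the replicate block 1 region, 15 tiles and 83 CpGs, and leaving out both treated libraries numbered 2 gave 4 regions, 19 tiles and 103 CpGs. The block changed no other call of a region; with it 30 tiles and 205 CpGs were called in CD11b-positive against PBS, where not every library correlated best with its own number.

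Differences without a call that changed sign were as follows, in points; the cause was not tested. With the Y share term, CD11b-positive against PBS gave -2.53 for Zbtb46, 4.35 for Cadm1 and -0.016 for Id2; CD11b-negative against PBS gave -1.10 for Batf3, -4.78 for Cd40, -0.98 for Zbtb46 and -0.25 for Id2; CD11b-positive against CD11b-negative gave -0.075 for Id2 and -2.55 for Cd86. In CD11b-negative against PBS, Zbtb46 was -0.10 with at least 5 calls per CpG, -0.082 with the block, and -0.16 without PBS 1, -0.35 without CD11b-negative 3 and -0.81 without CD11b-negative 2. Cd40 was -0.37 with the block, -0.48 without flanks, -0.040 without PBS 3 and -5.17 without CD11b-negative 2, which also gave -1.28 for Batf3 and -0.31 for Id2. Cd80 was 0.61 without CD11b-negative 1, 0.42 without CD11b-negative 4 and 1.32 with limma on unweighted CpG means, which in CD11b-positive against CD11b-negative gave -3.85 for Cadm1 and -0.0014 for Xcr1. Without CD11b-positive 4, Xcr1 was -0.0024 against PBS and -0.16 against CD11b-negative. Over all left-out libraries the highest value was 3.46 for Batf3, 2.97 for Cd40, 1.18 for Zbtb46 and 0.54 for Id2 and the lowest -2.12 for Cd80 in CD11b-negative against PBS, and the highest for Xcr1 was 0.32 in CD11b-positive against PBS and 0.16 in CD11b-positive against CD11b-negative. Regions with few CpGs (Cd86, Cd40) and CpG-dense regions near 0% (Id2, Xcr1) limit what a difference in points can show.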
